A study of Mus musculus with 7 samples.

Results

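Chromatin accessibility was examined at 37 genes that drive or brake the cell cycle, in regulatory T cells (Treg cells) that kept or had lost Opa1. The genes were grouped by role: the proliferation marker Mki67, 7 cyclins, 4 cyclin-dependent kinases, 3 kinase inhibitors, Rb1 with 3 E2F factors, Myc, 9 genes of DNA replication and nucleotide supply, and 8 genes of mitosis. A peak belonged to a gene if it touched the gene, or lay within 100 kb of it with no other protein-coding gene nearer. This gave 158 of the 50213 peaks in the deposited table, at least 1 for each of the 37 genes. Of these, 41 lay within 1 kb of either end of the gene (gene-end peaks), and the other 117 lay deeper inside the gene or farther outside it (other peaks).

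ATAC-seq marks open chromatin by letting a transposase insert sequencing adapters into DNA it can reach. Mice received CD45.1+ and CD45.2+ marrow at 1:1, and Treg cells of CD45.2+ origin were sorted from the spleen as CD4+ cells that carried the Foxp3-YFP reporter and no CD45.1. The CD45.2+ marrow was Foxp3Cre in the control group (WT, 4 chimeras) and Foxp3CreOpa1fl/fl in the other (Opa1 KO, 3 chimeras), so both groups carried the Cre. Cre is driven by Foxp3, so deletion is directed to cells that express Foxp3, and the CD45.1+ cells that share the mouse carry no floxed allele by this design. The comparison asked what losing Opa1 did to open chromatin. Opa1 is a mitochondrial GTPase that fuses inner membranes and shapes cristae. No age or sex is given in the sources used here.

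Cyclins bind and switch on cyclin-dependent kinases, and each phase of the cycle has its own pairs. D-type cyclins with Cdk4 and Cdk6 phosphorylate the retinoblastoma protein, which frees E2F factors to turn on the genes of DNA replication, and the inhibitors of the Ink4 and Cip/Kip families hold those kinases back. The genes of mitosis are turned on later, in G2, through promoter elements called CHR and CCAAT box, which the DREAM and MuvB complexes and NF-Y bind. Treg cells in the spleen divide more than conventional T cells at rest, and their division follows interleukin-2 and antigen receptor signals.

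The promoters of the genes carried the letters of these elements more often than promoters at large. RefSeq promoter windows of the GRCm38.p6 assembly, which mm10 names, run from 250 bases before the transcript start to 50 bases after it. They were found for 30 of the 37 genes, in 36 windows. The letters of the E2F site (TTTCCCGC, TTTGGCGC, TTTCGCGC or TTTGCCGC, on either strand) were in 22.2% of the 36 windows, against 2.3% of all 32851 windows in the table and 4.6% of the 9650 protein-coding windows that touched a peak. The CHR letters (TTTGAA or TTTAAA) were in 44.4%, against 27.6% of all windows and 17.4% of those at a peak. CCAAT was in 66.7%, against 37.4% and 39.5%. The windows of the mitosis genes held the CHR letters in 5 of 7, the E2F letters in 0 of 7 and CCAAT in 5 of 7. Those of the replication genes held the CHR letters in 3 of 9, the E2F letters in 4 of 9 and CCAAT in 8 of 9. The GC box GGGCGG was in 80.6% of the 36 windows, against 35.7% of all windows and 69.4% of those at a peak, and the E-box CACGTG in 13.9%, against 7.2% and 11.0%. Of the 36 windows, 29 touched a peak and compare directly with the protein-coding windows at a peak. Their shares were 24.1% for the E2F letters, 51.7% for CHR, 75.9% for CCAAT and 86.2% for the GC box. The E-box was in 10.3% of them, slightly below the 11.0%. All letters were searched on both strands, and matches of different motifs may overlap. A match describes letters, not binding, and these shares were not tested.

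The promoters of 5 genes are shown because they carry the contrasts that follow: Birc5 and Cdkn2c had gene-end peaks higher in every KO library than in any WT library, Cdk1 did so by a small margin, E2f3 had the most accessible gene-end peak of the 33 genes with one, and Plk1 was among the least accessible. Each is the sequence before the transcript start, 5′ to 3′, with the E2F, CHR and CCAAT letters of either strand in capitals.
Birc5 promoter, chr11:117848987-117849236, + strand: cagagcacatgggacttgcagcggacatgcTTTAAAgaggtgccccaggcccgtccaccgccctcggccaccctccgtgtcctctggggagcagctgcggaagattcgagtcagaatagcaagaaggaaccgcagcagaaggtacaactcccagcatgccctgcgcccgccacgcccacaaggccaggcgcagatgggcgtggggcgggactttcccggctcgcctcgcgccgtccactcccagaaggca
Cdkn2c promoter, chr4:109666757-109667006, - strand: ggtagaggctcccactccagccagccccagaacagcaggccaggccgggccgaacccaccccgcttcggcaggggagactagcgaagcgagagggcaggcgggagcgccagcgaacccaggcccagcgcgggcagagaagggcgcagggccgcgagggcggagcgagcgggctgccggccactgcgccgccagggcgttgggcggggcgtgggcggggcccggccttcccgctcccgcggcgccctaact
Cdk1 promoter, chr10:69352913-69353162, - strand: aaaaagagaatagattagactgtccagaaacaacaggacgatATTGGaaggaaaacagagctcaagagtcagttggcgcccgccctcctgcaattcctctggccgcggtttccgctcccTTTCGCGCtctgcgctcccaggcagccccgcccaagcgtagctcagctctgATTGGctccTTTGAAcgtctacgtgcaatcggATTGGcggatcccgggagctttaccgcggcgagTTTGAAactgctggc
E2f3 promoter, chr13:29986065-29986313, - strand: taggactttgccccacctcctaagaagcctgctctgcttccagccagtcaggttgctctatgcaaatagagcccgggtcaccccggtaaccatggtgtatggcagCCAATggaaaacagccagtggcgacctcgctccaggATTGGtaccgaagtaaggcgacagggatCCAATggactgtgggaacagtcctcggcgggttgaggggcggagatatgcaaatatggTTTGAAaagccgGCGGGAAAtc
Plk1 promoter, chr7:122159185-122159434, + strand: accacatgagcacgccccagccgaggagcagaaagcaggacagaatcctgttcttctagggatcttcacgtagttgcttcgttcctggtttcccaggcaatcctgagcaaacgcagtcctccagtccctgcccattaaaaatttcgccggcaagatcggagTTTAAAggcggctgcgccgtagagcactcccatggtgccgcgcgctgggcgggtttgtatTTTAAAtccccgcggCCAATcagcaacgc

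The Cdk1 promoter held 6 such matches and the E2f3 promoter 5, while the Plk1 promoter held 3. Birc5 held 1, and the stretch shown for Cdkn2c none. A peak covered each of these start sites. Start sites were inside a peak for 25 of the 30 genes in the promoter table, the exceptions being Cdk6, Cdkn1a, E2f1, Rrm2 and Pttg1, and 80.6% of the windows of the 37 genes touched a peak, against 45.4% of all protein-coding windows.

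The libraries held between 1534394 and 3384325 counts in peaks, and KO replicate 1 was the deepest. With counts halved to approximate read pairs, WT replicates 2 and 3 agreed within sampling noise over 36418 peaks (chi-square p = 0.11). They did not over the 11332 peaks with the highest counts (chi-square p = 0.038). Other pairs within a genotype differed only slightly more over the 36418 peaks (chi-square per degree of freedom 1.022 to 1.086, against 1.009). These values do not settle whether WT replicates 2 and 3 are separate samples. By choice, their average enters each mean ± SD as a single value, giving n = 3 in both groups. The tests kept all 7 libraries as separate samples, so SDs and p-values count the WT group differently. A fit with WT replicates 2 and 3 summed is among the alternatives. Averaging them can make a WT SD smaller than the spread of the 4 libraries. Levels are CPM, that is counts in a peak scaled to a common library total. The gene-end peaks of 4 of 6 Treg markers summed to between 235 and 269 CPM in WT and between 263 and 293 CPM in KO, while Foxp3 and Cd4 had peaks but none within 1 kb of a gene end. Of those 4 Treg markers, Cd3e had only 21 to 29.5 CPM in WT and 18.3 to 31.1 CPM in KO. Sums over different numbers of genes do not compare cell types. The CD8 T cell genes Cd8a and Cd8b1 summed to 20.5 to 29.8 CPM in WT and 25 to 36.1 CPM in KO. Of the myeloid, NK and erythroid markers, 1 each of 4, 3 and 3 had one, at no more than 20.3, 9.69 and 7.55 CPM, and Csf1r, Lyz2, Itgam, Ncr1, Klrb1c, Klf1 and Hba-a1 were at 0 by this measure. Of these, Klrb1c had 9 peaks, Itgam 3 and Klf1 1 away from the gene ends. The part of such cells in the values below was not tested. The tested Opa1 peak (log2 fold change -0.06, standard error 0.19, adjusted p = 0.955) does not check the deletion, since the deleted exons are unknown here.

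A gene-end peak was present at 33 of the 37 genes. No single cell cycle peak passed the test: of the 141 peaks with enough counts to test, 0 had an adjusted p under 0.05 in edgeR's quasi-likelihood test, where 33 of all 38041 tested peaks (0.0867%) did. The smallest adjusted p was 0.196. DESeq2 and limma-voom called 0 as well. An unadjusted p under 0.05 was reached by 15 of the 141 peaks (10.6%), against 9.47% of all tested peaks. Of the 15, 6 were higher and 9 lower in KO, where 4.74% and 4.73% of all tested peaks were. The 3 KO libraries lay entirely above or below the 4 WT libraries at 13 of the 141 peaks, against 9.36% of all tested peaks. Both shares were near the background of the whole table. In pools of sorted cells, a site open in fewer cells and a site less open in each cell cannot be told apart.

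Gene-end peaks and other peaks differed little in their medians, as they did over the whole table. At the 40 tested gene-end peaks the median log2 fold change of KO against WT was 0.07, and 24 were above 0. Over all 10645 tested gene-end peaks the median was 0.04, and 56.4% were above 0. At the 101 tested other peaks the median was -0.04, and 48 were above 0. Over all 25547 other peaks it was -0.03, and 47.1% were above 0. None of the 40 gene-end peaks was called (background 0.0282%) and none of the 101 other peaks (background 0.0822%). An unadjusted p under 0.05 in edgeR's test was reached by 5 of the 40 (8.73% of all gene-end peaks) and 10 of the 101 (9.59% of all other peaks). Without the peaks of Pttg1 the median of the 92 remaining other peaks was 0.01. The sign of the other-peak median was not stable: it was 0.02 under a mean-count filter of 20, 0.01 over peaks that touch the gene, and 0.00 with a replicate block or without KO replicate 1. The gene-end median was 0.02 without WT replicate 3.

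Counts summed over the gene-end peaks of each gene gave 1 value per gene and library. Of the 33 genes with such a sum, 0 were called, where 16 of 10156 genes (0.158%) were. DESeq2 and limma-voom also called 0. An unadjusted p under 0.05 in edgeR's test was reached by 4 of the 33 (background 8.6%). These were Birc5 (log2 fold change 0.57, adjusted p = 0.355), Cdkn2c (0.38, adjusted p = 0.54), Cdk2 (-0.60, adjusted p = 0.485) and Tyms (-1.05, adjusted p = 0.541).

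**Figure D1:**
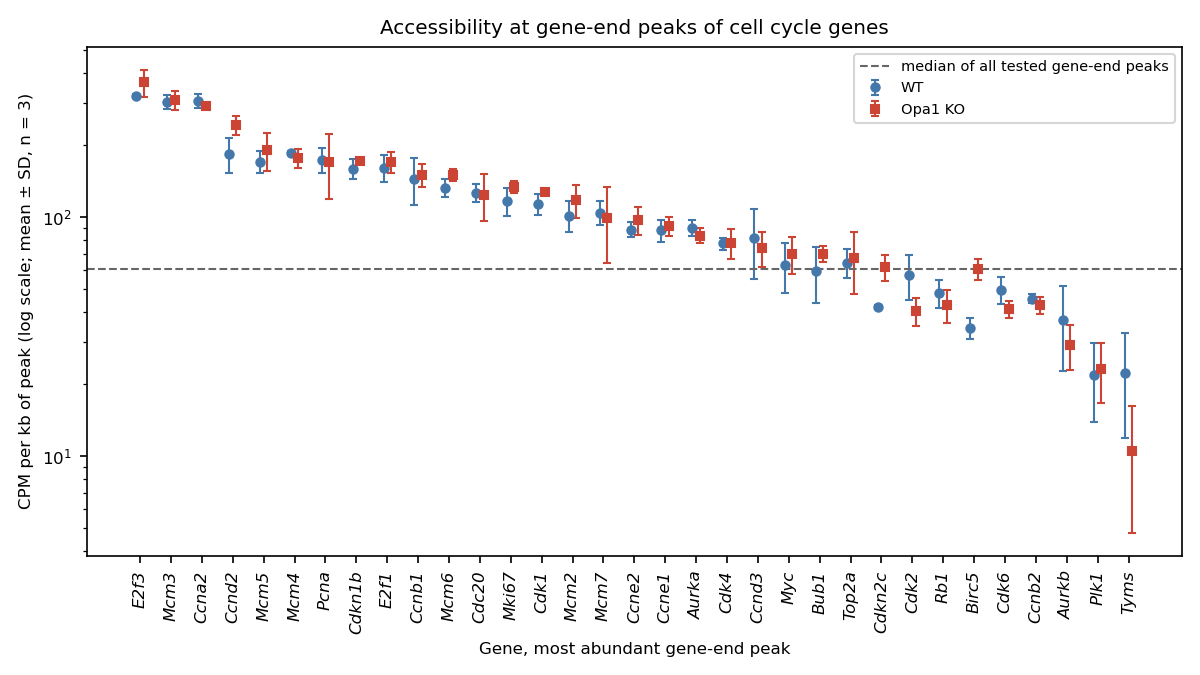
Accessibility at the most abundant gene-end peak of each of 33 cell cycle genes, in CPM per kb of peak on a log scale, as mean ± SD (n = 3 per genotype, WT blue circles, Opa1 KO red squares). The genes run from E2f3 (320 in WT, 364 in KO) to Tyms (22.2 in WT, 10.5 in KO), and the dashed line marks the median of all tested gene-end peaks, 60.4.

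Levels differed far more between genes than between genotypes. Scaled to peak length, the gene ends of E2f3, Mcm3 and Ccna2 were the most open. E2f3, an activating E2F factor, had 320 ± 5.61 CPM per kb in WT and 364 ± 46 CPM per kb in KO (SD, n = 3), at the 98.2 percentile of all tested gene-end peaks. Mcm3, a subunit of the replicative helicase, had 302 ± 20.4 and 307 ± 28.9 CPM per kb, and Ccna2, the cyclin of S phase and G2, 305 ± 20.8 and 291 ± 7.99 CPM per kb. These 3 did not differ among themselves beyond their spread in WT. At the other end stood the kinase of mitotic entry Plk1 (21.8 ± 7.99 CPM per kb in WT and 23.1 ± 6.52 in KO, SD, n = 3) and the thymidylate synthase gene Tyms (22.2 ± 10.3 and 10.5 ± 5.72). The median of the 40 gene-end peaks was 87.7 CPM per kb, against 60.4 over all tested gene-end peaks, and that of the 101 other peaks 45.3, against 33.9 over all tested other peaks. Of the 41 gene-end peaks, 7 also lay within 1 kb of the end of another protein-coding gene, at Ccna2, Mcm4, Mcm7, Pcna and Aurka, so their signal cannot be given to 1 gene.

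The peaks were spread unevenly. Cdk6 had 20, Ccnd2 15, Ccnd3 and Myc 12 each, Ccne1 11, and Rb1, E2f3 and Pttg1 10 each. These 8 genes held 91 of the 117 other peaks (77.8%), while the median was 2 peaks per gene, as it was over all 14280 protein-coding genes with a peak. Replication genes had at most 2 peaks each. Cdkn1a, E2f2, Rrm2 and Pttg1 had no gene-end peak. Gene ends are those of the whole gene span, so an other peak can cover a start site inside the gene, as at E2f2, Ccnd3 and Cdkn2c. Of the 117 other peaks, 55 touched a noncoding gene or pseudogene or lay nearer to one than to the cell cycle gene, such as Pvt1 beside Myc, Lockd beside Cdkn1b and 9330179D12Rik beside Ccnd2. Distance alone does not tell which gene a site regulates. The gene table gives gene spans without exons, so exons, introns and UTRs were not assigned.

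**Figure D2:**
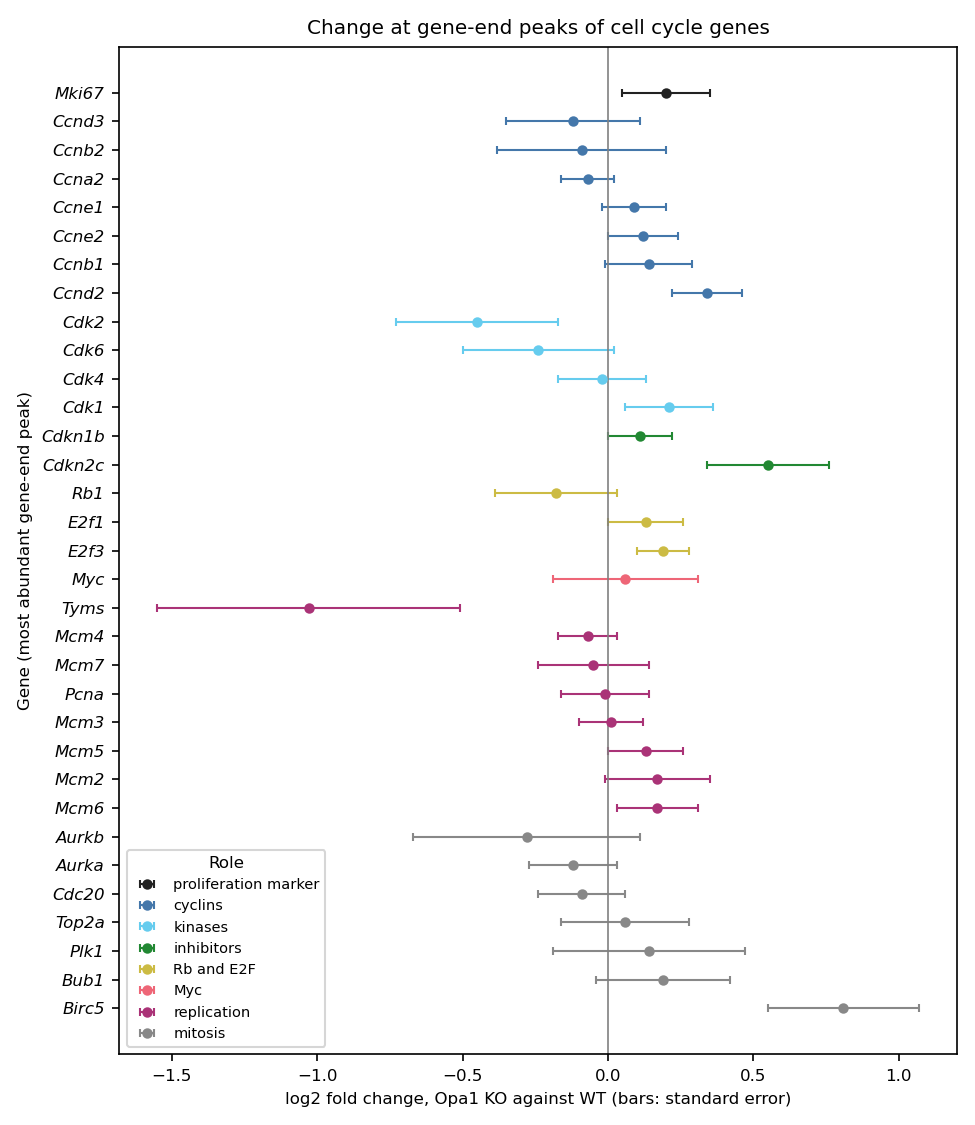
Change at the most abundant gene-end peak of each of 33 genes, as log2 fold change of Opa1 KO against WT with its standard error, coloured by role. Birc5 at 0.81 is the highest and Tyms at -1.03 the lowest, and no gene passed an adjusted p of 0.05.

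Mki67 encodes the Ki-67 protein of dividing cells. Its gene-end peak, on chromosome 7 from 135716354 to 135716841, had 51.3, 54.2, 51.8 and 65.3 CPM in WT replicates 1 to 4 and 60.4, 67.6 and 65.8 CPM in KO replicates 1 to 3. The KO libraries stood within or just above the WT range (log2 fold change 0.20, standard error 0.15, adjusted p = 0.708). A site 19181 bp outside the gene, from 135735631 to 135736119, leaned the other way, with 88.2, 79.9, 77.7 and 69 CPM in WT and 72.1, 63.2 and 51.8 CPM in KO. Only KO replicate 1 reached the WT range there (-0.32, standard error 0.14, adjusted p = 0.442). The other tested Mki67 peak was at 0.15.

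Among the 7 cyclins, 38 of 42 peaks were tested. The median log2 fold change was -0.01, with 19 above and 19 below 0. Ccna2, the most open cyclin gene end, had 177, 171, 165 and 154 CPM in WT and 161, 154 and 161 CPM in KO, at a peak on chromosome 3 from 36571886 to 36572431. The groups overlapped throughout (-0.07, standard error 0.09, adjusted p = 0.873). Ccnb2, a cyclin of mitosis and the least open of the 7, had 15.5, 12.2, 19.3 and 16.9 CPM in WT and 14.8, 16.4 and 14 CPM in KO on chromosome 9 from 70421429 to 70421781 (-0.09, standard error 0.29, adjusted p = 0.957). The KO libraries lay inside the WT range.

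Ccnd2, a D-type cyclin that links growth signals to G1 progress in lymphocytes, had the cyclin peak with the smallest p. It lay 64 bp outside the gene on chromosome 6 from 127152252 to 127152733, with 77, 108, 102 and 81.7 CPM in WT and 115, 128 and 106 CPM in KO. WT replicates 1 and 4 were low, and WT replicate 2 exceeded KO replicate 3, so the groups overlapped (0.34, standard error 0.12, adjusted p = 0.306). The second gene-end peak of Ccnd2, inside the gene, was at -0.29. Its most open peak away from the gene ends lay 93640 bp outside it, from 127245828 to 127246230, with 36.3, 46, 37.9 and 53.7 CPM in WT and 43.1, 33.5 and 48.5 CPM in KO (-0.05, standard error 0.18, adjusted p = 0.965). Neither genotype stood apart there. Summed over its 13 other peaks, Ccnd2 had a log2 fold change of 0.02 (standard error 0.08, adjusted p = 0.947).

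Ccnd3, the D-type cyclin of T cell precursors and mature lymphocytes, had 11 other peaks, all inside the gene, whose sum was at 0.01 (standard error 0.08, adjusted p = 0.984). The most open by mean level per length among them, from 47521518 to 47521892 on chromosome 17, had 34.9, 37.9, 25.3 and 46.4 CPM in WT and 38.2, 40.4 and 50.7 CPM in KO (0.24, standard error 0.19, adjusted p = 0.742). WT replicate 4 lay between the KO libraries. At the last peak inside the gene, from 47598198 to 47598615, WT had 34.9, 39.3, 47.6 and 41.6 CPM and KO 31.4, 28.4 and 33.4 CPM. All 3 KO libraries were below all WT libraries there, without passing the test (-0.38, standard error 0.19, adjusted p = 0.516). Ccne1, the cyclin of the G1 to S transition, had 10 other peaks on chromosome 7, 6 of them in the noncoding gene Gm30771. The Ccne1 sum over its other peaks was higher in each KO library than in any WT library (0.17, standard error 0.08, adjusted p = 0.349). Groups lay apart in either direction in 4 of the 19 other-peak sums of cell cycle genes, against 11.0% of all tested genes. Ccnb1 and Ccne2, each with 1 gene-end peak, were at 0.14 and 0.12.

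Among the 4 kinases, 24 of 25 peaks were tested, with a median of 0.02. Cdk1, the kinase of mitotic entry, had the most open gene end of the 4. Its peak covered the start site, on chromosome 10 from 69352800 to 69353245, and held 54.7, 44.7, 44.6 and 51.6 CPM in WT and 56.7, 56.9 and 56.6 CPM in KO. The KO libraries were nearly equal and all above the WT libraries, WT replicate 1 being closest (0.21, standard error 0.15, adjusted p = 0.725). Cdk4 was at -0.02 and the tested peak of Cdk2, a kinase of S phase, at -0.45.

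Cdk6, the partner of D-type cyclins in T cells, carried 19 other peaks, 18 of them inside the gene. Its gene-end peak, on chromosome 5 from 3341107 to 3341538, had 24.2, 18.3, 19.3 and 21.1 CPM in WT and 16.6, 17.1 and 19.4 CPM in KO (-0.24, standard error 0.26, adjusted p = 0.832), with KO replicate 3 inside the WT range. A weak site only 1127 bp inside that gene end, from 3342131 to 3342387, stood out for its size. It had 5.81, 6.77, 6.62 and 6.32 CPM in WT and 12.6, 12.6 and 16.2 CPM in KO. Every KO library lay well above every WT library, though the test was not passed (1.11, standard error 0.36, adjusted p = 0.273). This site also lies in the noncoding gene Gm36470.

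The strongest Cdk6 site, deep inside the gene from 3460781 to 3461369, had 104, 148, 130 and 103 CPM in WT and 151, 131 and 129 CPM in KO. WT replicates 1 and 4 were low and the others matched KO (0.20, standard error 0.11, adjusted p = 0.585). A site from 3494381 to 3495064 had 46.5, 32.5, 53.6 and 48.5 CPM in WT and 43.1, 31.6 and 22.7 CPM in KO. WT replicate 2 was nearly as low as KO replicate 2, so the groups overlapped (-0.44, standard error 0.19, adjusted p = 0.444). Over all 19 other peaks the sum for Cdk6 was at 0.10 (standard error 0.06, adjusted p = 0.502).

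**Figure D3:**
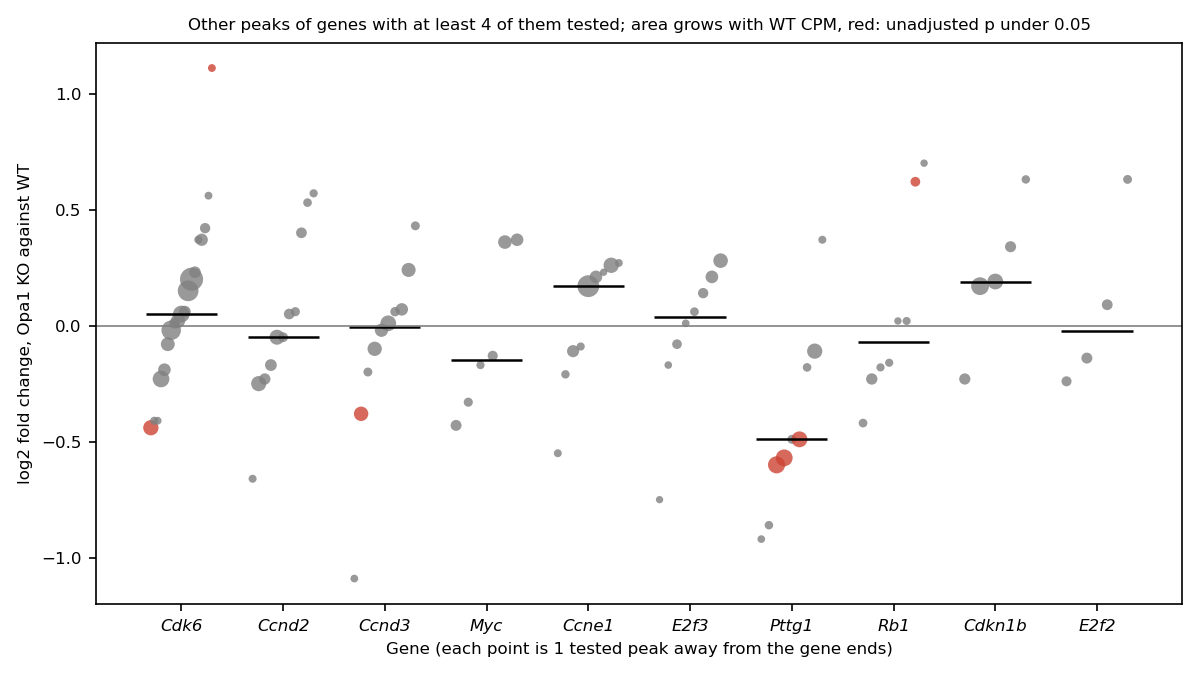
log2 fold change of each tested peak away from the gene ends, for the 10 genes with at least 4 of them, with black bars at the medians, point area growing with the WT level and red for an unadjusted p under 0.05. Peaks of Cdk6 and Ccnd3 scatter around 0, those of Cdkn1b lie mostly above it, and 8 of the 9 of Pttg1 lie below it.

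The 3 kinase inhibitors had 13 peaks, of which 12 were tested, with a median of 0.15 and 8 above 0. Cdkn1b encodes p27, which holds T cells out of the cycle. Its gene-end peak, on chromosome 6 from 134920115 to 134920819, had 101, 108, 116 and 123 CPM in WT and 124, 119 and 119 CPM in KO, and the groups overlapped (0.11, standard error 0.11, adjusted p = 0.813). The peak from 134921459 to 134921807, inside the gene, had 45.5, 65.7, 47 and 46.4 CPM in WT and 63.5, 53.1 and 55 CPM in KO. WT replicate 2 was the highest library of all, and the other WT libraries lay below KO (0.19, standard error 0.16, adjusted p = 0.764). The sum over the 5 other peaks of Cdkn1b was at 0.22 (standard error 0.09, adjusted p = 0.318).

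Cdkn2c encodes p18, an Ink4 inhibitor of Cdk4 and Cdk6. The peak over its start site, on chromosome 4 from 109666659 to 109667247, had 25.2, 29.8, 19.3 and 24.2 CPM in WT and 32, 35.4 and 41 CPM in KO. All KO libraries were above all WT libraries, the closest being WT replicate 2 and KO replicate 1 (0.55, standard error 0.21, adjusted p = 0.367). The second gene-end peak, inside the gene, was at 0.13. Cdkn1a, which encodes p21, a target of p53, had no gene-end peak, and its 2 other peaks summed to a change of 0.05 (standard error 0.18, adjusted p = 0.948).

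Rb1 and the E2F genes had 27 peaks, of which 23 were tested, with a median of 0.02. At the E2f3 start site, on chromosome 13 from 29985953 to 29986565, WT had 192, 204, 190 and 198 CPM and KO 218, 197 and 253 CPM. KO replicate 2 lay within the WT range and the others above it (0.19, standard error 0.09, adjusted p = 0.503). The gene end of Rb1, the pocket protein that holds E2F factors, was the least open of this group, with 28.6, 51.4, 23.5 and 33.7 CPM in WT and 30.5, 24.6 and 34 CPM in KO on chromosome 14 from 73325617 to 73326311 (-0.18, standard error 0.21, adjusted p = 0.854). WT replicate 2 was high there. A site 9333 bp outside Rb1, from 73335284 to 73335845, had 10.7, 9.48, 14.5 and 19 CPM in WT and 16.6, 24 and 22.7 CPM in KO, and WT replicate 4 overlapped with KO (0.62, standard error 0.28, adjusted p = 0.477). The gene-end peak of E2f1 was at 0.13. E2f2 had no gene-end peak, and its 4 tested peaks ran from -0.24 to 0.63. Among them, the peak from 136180492 to 136180805 on chromosome 4 covered a start site inside the gene and was at 0.09.

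Myc, which drives growth and cell cycle entry after T cell activation, had 12 peaks, of which 8 were tested, from -0.43 to 0.37. The gene-end peak with the higher level, 72 bp outside the gene on chromosome 15 from 61984939 to 61985269, had 16, 27.8, 23.5 and 20.5 CPM in WT and 18.5, 25.9 and 24.8 CPM in KO, within the WT range (0.06, standard error 0.25, adjusted p = 0.968). A peak 1690 bp outside the gene, from 61983316 to 61983651, had 25.7, 37.9, 28.9 and 25.8 CPM in WT and 33.3, 37.9 and 43.7 CPM in KO. WT replicate 2 matched KO replicate 2 and the other WT libraries were lower than all KO libraries (0.37, standard error 0.20, adjusted p = 0.563). The 6 peaks farthest from Myc lay in or near the noncoding gene Pvt1, and the 3 of them that were tested were below 0.

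The 9 replication genes had 14 peaks, all tested, with a median of 0.03. Mcm3, on chromosome 1 from 20820215 to 20820618, had 129, 126, 122 and 113 CPM in WT and 115, 120 and 137 CPM in KO (0.01, standard error 0.11, adjusted p = 0.984), with KO replicate 3 above the WT range and the others inside it. The gene-end peaks of the 6 Mcm genes ran from -0.07 to 0.24, and those of Pcna, the sliding clamp of DNA polymerase, were at 0.04 and -0.01. Tyms, the least open of the 33 gene ends by the mean over both genotypes, though not in WT, where Plk1 was slightly lower per kb, had 3.39, 6.77, 10.8 and 9.48 CPM in WT and 5.55, 2.53 and 2.16 CPM in KO on chromosome 5 from 30073468 to 30073793. WT replicate 1 was as low as KO, and 6 counts correspond to between 1.85 and 4.06 CPM, so depth limited this value (-1.03, standard error 0.52, adjusted p = 0.527).

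Of the 3 replication peaks with an unadjusted p under 0.05, all lower in KO, Tyms was at a gene end and the other 2 lay away from the gene ends. The peak inside Mcm6, 1918 bp from the gene end on chromosome 1 from 128357450 to 128357787, had 20.3, 19, 15.7 and 16.9 CPM in WT and 12, 7.58 and 9.71 CPM in KO. All KO libraries were below all WT libraries (-0.83, standard error 0.30, adjusted p = 0.339), while the Mcm6 gene-end peak was at 0.17 (standard error 0.14, adjusted p = 0.762). Rrm2, a subunit of ribonucleotide reductase, had as its only peak a site 48197 bp away on chromosome 12 from 24762343 to 24762852, with 8.72, 8.12, 6.02 and 5.27 CPM in WT and 2.77, 1.26 and 4.31 CPM in KO. KO was lower in every library, at levels near the limit of depth (-1.30, standard error 0.56, adjusted p = 0.448). A pseudogene lies nearer to that site than Rrm2.

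**Figure D4:**
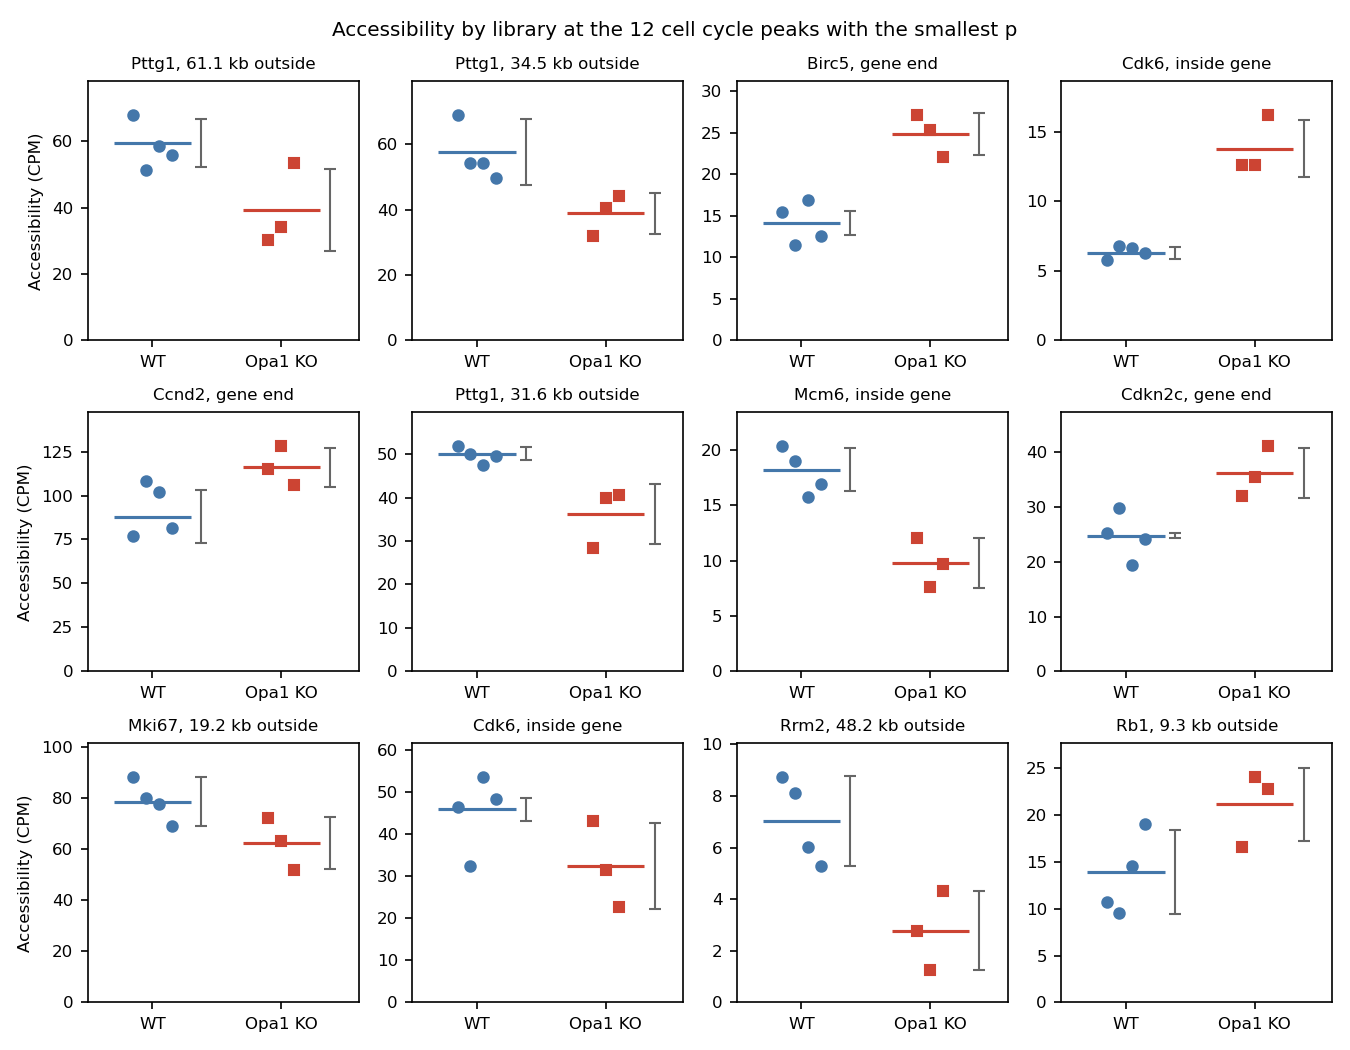
CPM in each library at the 12 cell cycle peaks with the smallest p (WT blue circles, Opa1 KO red squares, horizontal lines at the mean and grey bars for ± SD with n = 3, WT replicates 2 and 3 counted as 1 sample). The KO libraries are above all WT libraries at the Birc5 gene end, the Cdkn2c gene end and 1 Cdk6 site, and below them at 2 of the 3 Pttg1 sites, Mcm6 and Rrm2.

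The 8 mitosis genes had 21 peaks, of which 19 were tested, 6 above and 13 below 0. Pttg1 alone gave 1 of those above and 8 of those below. The mitosis gene-end peaks were 5 above and 3 below 0. Birc5 encodes survivin, a subunit of the chromosomal passenger complex that also inhibits cell death. The peak over its start site, on chromosome 11 from 117848998 to 117849410, had 15.5, 11.5, 16.9 and 12.6 CPM in WT and 27.1, 25.3 and 22.1 CPM in KO, or 14.1 ± 1.43 and 24.8 ± 2.53 (SD, n = 3). The KO libraries lay well above the WT libraries, with no overlap, and this was the gene-end peak with the smallest p of the 37 genes (0.81, standard error 0.26, adjusted p = 0.262). Its second gene-end peak, 468 bp outside the gene, was at 0.25 (standard error 0.36, adjusted p = 0.883).

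The rest of the mitosis gene ends were mixed. Cdc20, the activator of the anaphase-promoting complex, had 55.7, 65.7, 65 and 56.9 CPM in WT and 53.6, 72 and 47.5 CPM in KO on chromosome 4 from 118437205 to 118437676 (-0.09, standard error 0.15, adjusted p = 0.913). KO replicate 2 was above and the other KO libraries below the WT range. Plk1, on chromosome 7 from 122158980 to 122159545, had 17.4, 9.48, 8.43 and 10.5 CPM in WT and 10.5, 11.4 and 17.3 CPM in KO, with both groups over the same range (0.14, standard error 0.33, adjusted p = 0.937). The topoisomerase gene Top2a was at 0.06, the spindle checkpoint kinase gene Bub1 at 0.19, and the Aurora kinase genes Aurka and Aurkb at -0.12 and -0.28.

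Pttg1 encodes securin, which holds separase inactive until anaphase. It was the 1 cell cycle gene whose summed other peaks passed the test: of 19 such sums 1 was called, where 35 of 8408 genes (0.416%) were. Scaled to the library total of other peaks alone, the Pttg1 sum in CPM was 540, 495, 476 and 430 in WT replicates 1 to 4 and 326, 399 and 424 in KO replicates 1 to 3, or 485 ± 55.1 and 383 ± 50.8 (SD, n = 3). All KO libraries lay below all WT libraries, but WT replicate 4 and KO replicate 3 were close. Groups lay apart in either direction in 11.0% of all such sums. The log2 fold change was -0.36 (standard error 0.09, adjusted p = 0.0317 in edgeR's quasi-likelihood test). The call was lost with DESeq2 (adjusted p = 0.0886), without WT replicate 1 (-0.29, adjusted p = 0.178), without WT replicate 2 (-0.34, adjusted p = 0.0505) and without KO replicate 1, the deepest library (-0.23, adjusted p = 0.369). It was kept in the other 12 of 16 alternative settings. Over all 16 the adjusted p ran from 0.00529 to 0.369.

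The lower signal lay far beyond the Pttg1 gene. Pttg1 spans 43420244 to 43427463 on chromosome 11. The peak nearest its start, from 43426076 to 43426459, missed the limit for a gene-end peak by 4 bp and so counts as an other peak. It had 50.4, 56.9, 53 and 31.6 CPM in WT and 40.4, 49.3 and 44.2 CPM in KO, and the groups overlapped (-0.11, standard error 0.17, adjusted p = 0.9). The remaining 9 lay beyond the far end of the gene, on the side of Mir146, the gene of the microRNA miR-146a, which is 45783 bp from Pttg1 with its hairpin from 43374397 to 43374461. Summed over only those peaks that touch no gene, a choice made after the data had been seen, Pttg1 was at -0.41 (adjusted p = 0.0232). Of all 4583 genes tested this way, 15 were called. That sum was not refitted under the alternative settings. The 6 peaks from 43348647 to 43395670 are all nearer to Mir146 than to Pttg1. Gm5782, a noncoding RNA gene, is the nearest noncoding gene to 4 of the 9, among them the peak from 43395318. miR-146a acts in Treg cells and other leukocytes as a brake on inflammatory signals. Its mature sequence from the RefSeq table, 5′ to 3′ with the seed of bases 2 to 8 in capitals, is given because the peaks with the lowest p flank it.
mmu-miR-146a-5p, chr11:43374435-43374456, - strand: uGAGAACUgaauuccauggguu

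The 3 strong sites flanked Mir146. The peak from 43358451 to 43359169, 15228 bp beyond it, had 67.8, 51.4, 58.4 and 55.9 CPM in WT and 30.2, 34.1 and 53.4 CPM in KO, where KO replicate 3 reached the WT range (-0.60, standard error 0.17, adjusted p = 0.196). The peak from 43385070 to 43385697, 10609 bp from it on the Pttg1 side, had 68.8, 54.2, 54.2 and 49.5 CPM in WT and 32, 40.4 and 44.2 CPM in KO, with no overlap (-0.57, standard error 0.17, adjusted p = 0.21). The peak from 43388058 to 43388655, 13597 bp from Mir146, had 51.8, 50.1, 47.6 and 49.5 CPM in WT and 28.3, 39.8 and 40.5 CPM in KO, again with no overlap (-0.49, standard error 0.18, adjusted p = 0.327). KO replicate 1 was the lowest library at each of these 3 sites. The peak from 43358451 alone was called with counts halved (adjusted p = 0.036) and without KO replicate 3 (adjusted p = 0.048), with a range over its alternatives from 0.036 to 0.553. The closest peak to Mir146, 2718 bp away, had less than 12 CPM in every library and was at 0.37 (standard error 0.41, adjusted p = 0.844). Of the 4 other tested weak sites between 43348647 and 43413094, all were below 0, from -0.92 to -0.18.

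**Figure D5:**
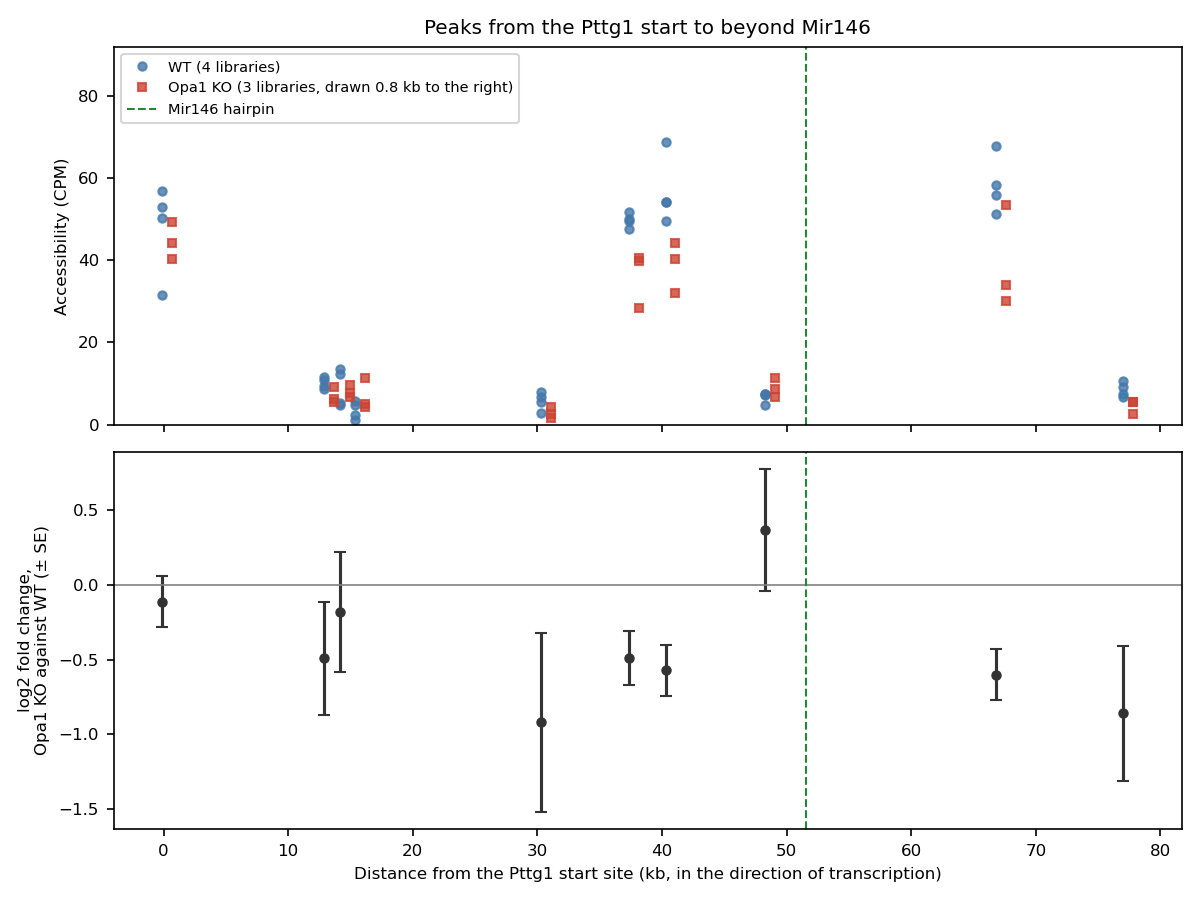
Peaks from the Pttg1 start to beyond the Mir146 hairpin (dashed line) by distance in kb from the Pttg1 start site, with CPM per library above and log2 fold change ± standard error below. The 3 strong sites near Mir146 lie between -0.60 and -0.49, while the peak at the Pttg1 start is at -0.11.

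Of the other sums, 4 had an unadjusted p under 0.05 without passing the test, so that 5 of 19 did with Pttg1 (background 12.4%): Ccne1 and Cdkn1b, given above, Mcm6 (-0.80, adjusted p = 0.239) and Rrm2 (-1.26, adjusted p = 0.302), the last 2 from 1 peak each. The remaining 14 sums ran from -0.51 to 0.15.

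A wider list of 96 cell cycle genes outside the 37 held 269 peaks, of which 210 were tested. The median log2 fold change was 0.02, 117 were above 0, and 0 were called in edgeR's test (background 0.0867%). An unadjusted p under 0.05 was reached by 17 (8.1%), 13 higher and 4 lower, against 9.47% of all tested peaks. Of these, 14 were among the 88 tested peaks of G1 and G0 control genes (12 higher), 0 among the 58 of replication genes, and 3 among the 64 of G2 and mitosis genes. The difference between those subgroups was not tested.

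The 2 peaks with the smallest p in that list belonged to an inhibitor and to a mitotic brake. Cdkn2b encodes p15, an Ink4 inhibitor. Its site, 76244 bp from the gene on chromosome 4 from 89387276 to 89387605, had 5.81, 6.77, 8.43 and 5.27 CPM in WT and 21, 12.6 and 18.3 CPM in KO. Every KO library was above every WT library (1.43, standard error 0.34, adjusted p = 0.0575). Wee1 encodes the kinase that keeps Cdk1 inactive before mitosis. Its site, 12484 bp from the gene on chromosome 7 from 110109003 to 110109575, had 71.7, 58.2, 59 and 49.5 CPM in WT and 38.2, 32.9 and 38.8 CPM in KO, all lower (-0.70, standard error 0.17, adjusted p = 0.0575). Both missed the threshold by little and passed it in some alternatives, Wee1 in 6 of 16 (adjusted p from 0.0153 to 0.319) and Cdkn2b in 4 of 15 (from 0.0169 to 0.352). DESeq2 called 2 peaks of the list (Wee1 and Max, adjusted p = 0.0419 for both) and limma-voom 1, that of Max (adjusted p = 0.037), which encodes the partner of Myc and is named here after its values were seen. The Max gene-end peak, on chromosome 12 from 76962000 to 76962556, had 130, 157, 158 and 152 CPM in WT and 187, 197 and 192 CPM in KO (0.36, standard error 0.09, adjusted p = 0.101 in edgeR's test), with all KO libraries above all WT libraries.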

How the data were processed

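ATAC-seq libraries of sorted splenic Treg cells, 4 WT and 3 Opa1 KO, were compared. The authors deposited raw counts (whole numbers, no normalization) of 7 libraries over 50213 peak intervals in a single table. Per the submitters' processing notes, the genome build was mm10 and the tools were BWA 0.7.16, MACS2 2.1.1, SAMtools 1.9, bedtools 2.25.0, Trimmomatic 0.36 and Picard 2.9.4. Their settings, the merging of peaks, any transposase shift and the base from which interval starts count: not given in the sources used here. Positions are as deposited. Between 78.0% and 86.3% of the counts per library were even, as counting both mates of a pair gives, so counts overstate fragments. Depth was 1534394 to 3384325 counts per library. Amplified reads carry no molecular identifiers here, so a floor of 6 counts, from 3 pairs, reflects counting error only. The series' design text gives 4 and 3 mice, but no label ties a library to a mouse, so p-values measure the spread between libraries, which may be partly technical.

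Peaks were matched by overlap or nearest gene end to protein-coding genes of a RefSeq GRCm38.p6 table, and a peak touching several genes counted for each. The symbols of all 37 genes matched. All 38041 peaks kept by filterByExpr (minimum count 10, total 15) were fitted with edgeR 4.0.16 (quasi-likelihood, robust, TMM factors 0.985 to 1.013, genotype as the only term) in R 4.3.3, with Benjamini-Hochberg adjustment over every tested peak at 0.05. The filter kept 141 of the 158 cell cycle peaks. Sums per gene over gene-end peaks and over other peaks were fitted the same way, each as a table of its own, and their CPM are scaled to the totals of that table. Adjusted p-values are from edgeR unless another tool is named. The common biological coefficient of variation was 0.157. Alternatives were DESeq2 1.42.0, limma-voom (limma 3.58.1), other scalings and filters, halved counts and a replicate block. Further ones were WT replicates 2 and 3 summed, other assignment limits and leaving out each library. The procedure was tested on simulated data with known changes. Those changes were large and at well-covered peaks, and mate pairs were not simulated. Smaller changes and changes at weak peaks were not tested in this way. Python 3.11.15, pandas 2.3.3, NumPy 2.4.6, SciPy 1.17.1 and matplotlib 3.10.9 were used.

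The genes and lists were chosen with earlier results of these data known. Library values are given for every called sum, the 12 peaks with the smallest p, the gene-end peak of the most and the least open gene of each role, the most open other peak of Ccnd2, Ccnd3, Cdk6, Cdkn1b and Myc, and the 2 peaks of the wider list with the smallest p. The remaining peaks of Pttg1, the Ccnd3 peak from 47598198 and the Max peak were chosen after their values were seen. No genome sequence was used here, so peak sequences are not printed. Start sites come from the RefSeq promoter table. The B cell marker list is not reported here.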

Additional observations from a re-analysis of the deposited data

Results flagged for a closer look

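The peak inside Cdkn1b, on chromosome 6 from 134921459, had 1 WT library far from the others. WT replicate 2 had 65.7 CPM, while the other WT libraries had 45.5, 46.4 and 47 CPM, so the gap to the nearest of them was 0.929 of the whole WT range. Of the 31 results for which library values were checked in this way it was the only one, and chance sets apart a library in about 1 in 20 groups.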

How the results depend on the processing

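The number of cell cycle peaks called was 0 except with counts halved and without Opa1 KO replicate 3 (1 each, the Pttg1 peak from 43358451), so it ran from 0 to 1 when 1 library was left out. Gene-end sums gave 0 in every alternative. Other-peak sums gave 1, but 0 with DESeq2, and 0 to 1 with a library left out (0 without WT replicate 1, WT replicate 2 or KO replicate 1). The wider list gave 0, but 2 with DESeq2, 1 with limma-voom, 1 with the total count only, 2 with loess offsets, 2 under the mean-count filter of 20, 2 with counts halved, and 0 to 1 with a library left out (1 without WT replicate 4, Wee1, and 1 without KO replicate 2, Cdkn2b). The gene-end median of 0.07 ran from 0.02 (without WT replicate 3) to 0.07 with a library left out. The median of other peaks, -0.04, became 0.02 under the mean-count filter of 20 and 0.01 for peaks that touch the gene, and ran from -0.03 to 0.00 with a library left out. Of 484 values of 31 named results under the alternatives, 460 kept direction and side of the threshold, 4 lost and 2 gained the call, and 18 reversed, all with a main value between -0.18 and 0.14. These were Ccnb2 (0.00 without WT replicate 3), Rb1 (0.05 without WT replicate 2), Myc (-0.01 with counts halved, -0.07 without WT replicate 1, -0.02 without KO replicate 2), Cdc20 (0.03) and Plk1 (-0.09) without KO replicate 3, the distal Ccnd2 peak (0.07 without WT replicate 4, 0.08 without KO replicate 2) and Mcm3 (-0.01 with limma-voom and with the total count, -0.05 with loess offsets, -0.02 under the mean-count filter, -0.03 with counts halved and without WT replicate 4, -0.06 without KO replicate 3). With a library left out, the ranges were -0.20 to 0.00 (Ccnb2), -0.32 to 0.05 (Rb1), -0.07 to 0.23 (Myc), -0.24 to 0.03 (Cdc20), -0.09 to 0.43 (Plk1), -0.15 to 0.08 (Ccnd2) and -0.06 to 0.08 (Mcm3). The cause was not tested.

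The replicate block groups libraries by number, so WT replicate 4 stood alone and did not inform the genotype contrast. With this block, 0 cell cycle peaks were called (smallest adjusted p = 0.308). The Pttg1 sum stayed called (-0.41, adjusted p = 0.0368), and the wider list gave 0. The medians were 0.08 and 0.00, the distal Ccnd2 peak was at 0.07 and Mcm3 at -0.03. Libraries of the same number did not deviate together (correlations 0.008, -0.015 and 0.004). Libraries of a genotype differed by little more than sampling noise, so these correlations cannot tell whether the numbers pair the samples. With WT replicates 2 and 3 summed, 0 cell cycle peaks were called. The Pttg1 sum stayed called in that fit (-0.36, adjusted p = 0.0331 in edgeR's test). Depth limited sites near the floor, 1.85 to 4.06 CPM.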
